A study of Mus musculus with 35 samples.

Results

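The levels of 10 genes that store or remove maternal mRNA were followed in single late 2-cell mouse embryos: Btg4, Cnot6l, Cnot7, Cnot8, Zar1, Zar1l, Ybx2, Lsm14b, Cpeb1 and Pabpn1l. All 10 were found by symbol among the 54838 gene rows through their Ensembl IDs in GENCODE M21. All 10 passed the filter on low counts. Embryos were F1(C57BL/6JxCBA/H), and each embryo is 1 library made with Smart-seq+5′, a variant of Smart-seq2 that yields reads from transcript 5′ ends beside internal reads of polyA RNA. Zygotes were microinjected 24 h after the hCG injection that induces ovulation, and embryos cultured in KSOM were collected at 48 h. The series asks what the transcription factor SRF does while the embryo's own genome is switched on.

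The 35 embryos formed 4 groups. Control embryos (9) received a scrambled antisense oligonucleotide. SRF-LOF embryos (7) received mRNA for a dominant negative form of SRF and, by the labels, no oligonucleotide. DUX-LOF embryos (9) received an antisense oligonucleotide against DUX, a homeodomain factor of the 2-cell stage. Double-LOF embryos (10) received both agents. No group received a control mRNA, so an effect of injecting mRNA and an effect of the dominant negative protein cannot be told apart. Against either Control or DUX-LOF embryos, SRF-LOF embryos also lack an oligonucleotide, and an effect of this cannot be told apart either. Since neither a litter nor a batch is labelled, the p-values reflect only how these single embryos vary, which may be partly technical.

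The fully grown oocyte is transcriptionally silent and lives on stored mRNA, which is kept with short poly(A) tails, bound by storage proteins and translated on demand. During meiotic maturation and after fertilisation these mRNAs are deadenylated by the CCR4-NOT complex and degraded while the embryonic genome takes over. BTG4 is the adaptor that brings CCR4-NOT to maternal mRNAs. CNOT6L, CNOT7 and CNOT8 are catalytic deadenylase subunits. ZAR1 and ZAR1L, the RNA-binding protein YBX2 (MSY2), LSM14B and CPEB1 act in storage and translational control, and PABPN1L is a poly(A)-binding protein of the oocyte that works with BTG4.

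RefSeq upstream windows (GRCm38.p6) were matched for 9 of the 10 genes, as 15 windows. The gene without a window is Cnot7, which was also lower after DUX loss. The 3 shown belong to genes whose RNA differed from control after DUX loss or after the double injection: Btg4 and Zar1l, which were lower, and Lsm14b, which was higher. Each is the 250 bases before the transcript start, 5′ to 3′ on the gene's strand, with CpG dinucleotides in capitals.
Btg4, chr9:51115751-51116000, plus strand: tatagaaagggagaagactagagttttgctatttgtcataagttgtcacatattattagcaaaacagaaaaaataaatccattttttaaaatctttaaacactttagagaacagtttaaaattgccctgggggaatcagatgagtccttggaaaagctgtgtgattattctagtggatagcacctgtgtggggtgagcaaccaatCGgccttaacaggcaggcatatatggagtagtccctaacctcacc
Zar1l, chr5:150518160-150518409, minus strand: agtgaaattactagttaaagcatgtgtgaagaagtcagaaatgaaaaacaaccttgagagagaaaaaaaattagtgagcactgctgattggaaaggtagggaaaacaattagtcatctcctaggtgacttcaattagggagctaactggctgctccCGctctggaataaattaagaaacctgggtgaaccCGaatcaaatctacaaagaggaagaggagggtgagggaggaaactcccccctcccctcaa
Lsm14b, chr2:180024737-180024986, plus strand: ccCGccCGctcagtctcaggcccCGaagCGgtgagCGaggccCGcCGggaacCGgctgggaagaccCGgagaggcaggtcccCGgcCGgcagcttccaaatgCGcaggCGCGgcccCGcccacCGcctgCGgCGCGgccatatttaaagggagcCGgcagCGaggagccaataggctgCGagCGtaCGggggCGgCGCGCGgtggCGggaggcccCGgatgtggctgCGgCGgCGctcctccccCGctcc
The Btg4 window holds 1 CpG and the Zar1l window 2, while the Lsm14b window holds 34. Of 32851 mouse windows of this length, 7.87% hold fewer CpG than Btg4, 18.8% fewer than Zar1l and 96.5% fewer than Lsm14b. The other windows ranged from 3 CpG in Pabpn1l and in 1 of 4 windows of Cnot8 to 37 in Cnot6l. Pabpn1l, Cnot8 and Cnot6l were not called against control in the main test. A relation between CpG number and the changes was not tested. The CArG box, the motif SRF is known to bind, was searched on both strands from 250 bases before to 50 bases after the start. It occurred in 0 of the 15 windows, and 1.63% of all windows hold it. Its absence says only that this motif is not in these windows.

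Internal gene counts ranged from 220921 to 2039475 per embryo and 5′ gene counts from 505157 to 2343900. Reads on Srf, which the injected mRNA can also supply, were at 93.0 CPM or more in every SRF-LOF embryo and 205 CPM or more in every Double-LOF embryo, against at most 42.4 CPM in controls and 52.3 CPM in DUX-LOF embryos. CPM stands for counts per 1000000 of the library size scaled by TMM. Duxf3, the gene of DUX, had a median of 2.75 CPM with the DUX oligonucleotide alone, against 7.76 CPM for controls. With both agents its median was also 7.76 CPM, and with the SRF mRNA alone it was 12.2 CPM. The embryo DUX-LOF 10 was at 119.7 CPM, and the mean of its group, 16.3 CPM, lay above the control mean of 8.95 CPM. These levels do not show that Duxf3 RNA was lowered in Double-LOF embryos. All 10 defining genes of the 2-cell embryo were detected in each group, and their summed level ranged from 493 to 7306 CPM in controls (median 1116), 1166 to 6486 CPM in SRF-LOF (3342), 218 to 743 CPM in DUX-LOF (536) and 374 to 1290 CPM in Double-LOF embryos (826). Cumulus cell markers summed to at most 51.1 CPM, sperm markers to at most 18.8 CPM and blood cell markers to at most 169 CPM in any library, and Fshr and Hbb-bs were at 0 in all. SRF-LOF 3 and SRF-LOF 8 stood apart in their group and had the lowest summed maternal RNA of the 7 SRF-LOF embryos, at 43247 and 52855 CPM against 75519 to 109691 CPM in the other 5.

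The general level of maternal RNA was read from 53 oocyte transcripts, such as zona pellucida, Nlrp and Oas1 genes, none of them among the 10. Their summed level was 54611 ± 18948 CPM (SD, n = 9) in controls, 80318 ± 24839 CPM (n = 7) in SRF-LOF, 30667 ± 6972 CPM (n = 9) in DUX-LOF and 35007 ± 16197 CPM (n = 10) in Double-LOF embryos. Of the 51 transcripts tested, 17 fell and 2 rose in DUX-LOF embryos with a median log2 fold change of -0.66, and 10 fell and 5 rose in Double-LOF embryos with a median of -0.44. In SRF-LOF embryos 6 rose and none fell, with a median of 0.78. That count rests on the fit. DESeq2 called 13 higher and none lower, and edgeR called 7 higher in 5′ reads, 5 with DESeq2 size factors and 4 with no filter. It called none with ERCC scaling (median 0.36), with only the groups compared (median 0.71) or with the replicate number as a block (median 0.50). Scaling to the maternal list called 1, but that scale takes out a shared shift of the list by design. The median of all 12261 genes tested lay between -0.08 and -0.04 in these 3 comparisons. With internal reads, Zp3, a zona pellucida protein, changed by -2.21 ± 0.40 (SE, adjusted p = 0.000159), and Dppa3, which protects maternal DNA methylation, by -1.42 ± 0.26 (adjusted p = 0.000202), both in DUX-LOF embryos. In SRF-LOF embryos Oas1d, an oocyte member of the oligoadenylate synthetase family, changed by 2.42 ± 0.41 (adjusted p = 0.00366), and Zfp57, which guards imprints, by 1.63 ± 0.39 (adjusted p = 0.0263). All adjusted p-values are from edgeR's quasi-likelihood test with Benjamini-Hochberg adjustment over all genes tested, at a threshold of 0.05, unless DESeq2 is named. CPM are shares of a library, so less maternal RNA and more of other RNA cannot be told apart by CPM alone. Levels in the single cells of an embryo are not resolved.

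Per kilobase of exon, Btg4 was the most abundant of the 10 in controls, at 931 ± 411 internal CPM per kb (SD, n = 9), followed by Cnot8 at 263 ± 51.7 and Cnot7 at 165 ± 62.9. Zar1l stood at 37.4 ± 20.9 and Ybx2 at 19.3 ± 10.6 CPM per kb. Cpeb1 at 16.6 ± 4.72, Cnot6l at 14.9 ± 5.86 and Zar1 at 13.2 ± 12.7 followed. Pabpn1l at 6.14 ± 2.94 and Lsm14b at 4.09 ± 2.59 CPM per kb were lowest. From Zar1l downward, neighbours in this order differed by less than the larger of their SDs.

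**Figure D1:**
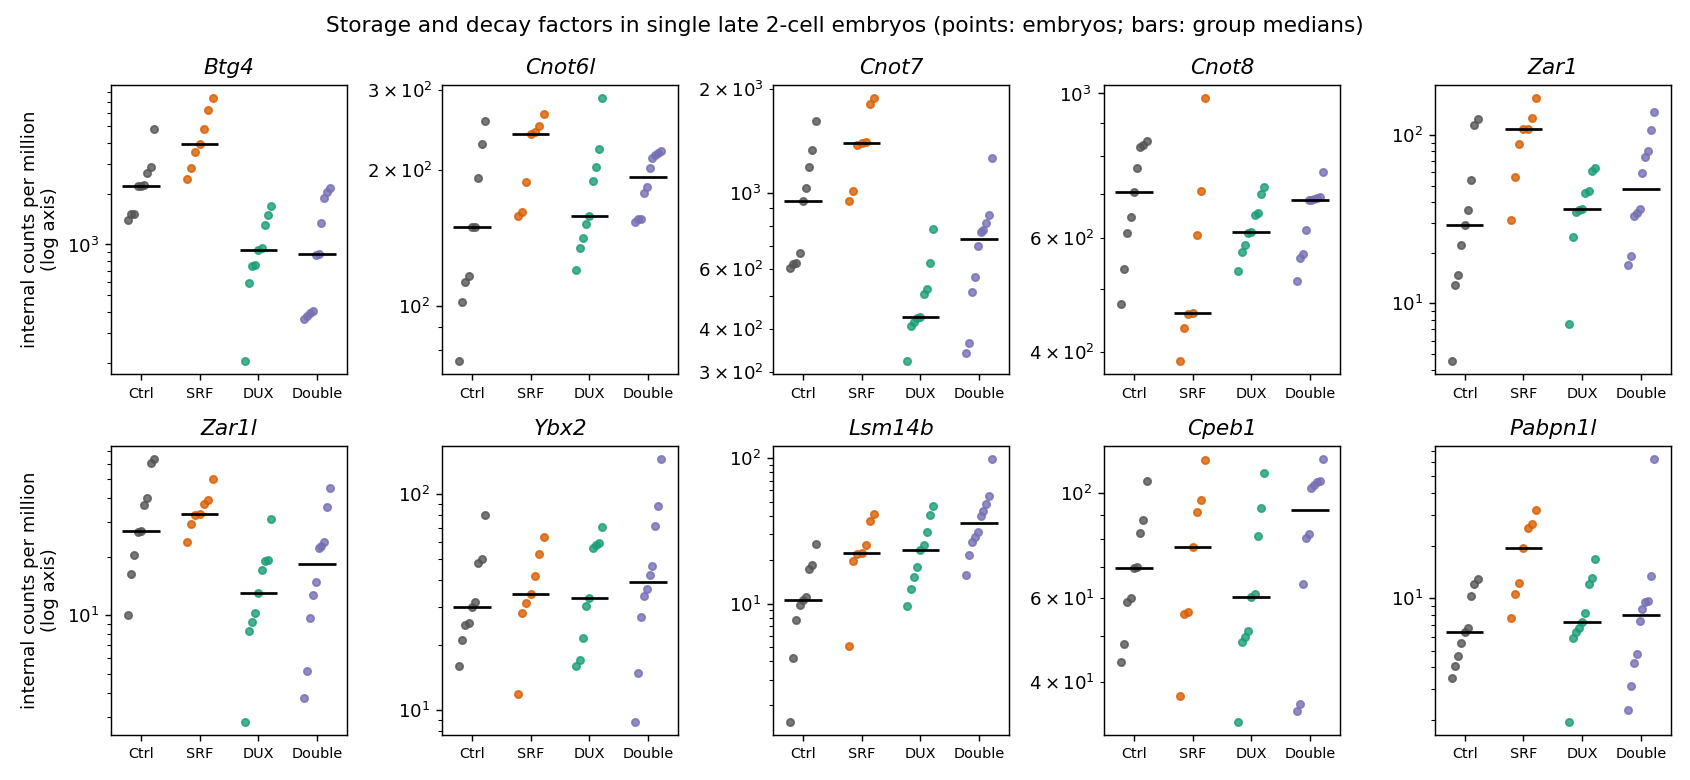
Internal CPM (log axis) of the 10 genes in each embryo, as points, with group medians as bars, for Control (Ctrl, n = 9), SRF-LOF (SRF, n = 7), DUX-LOF (DUX, n = 9) and Double-LOF (Double, n = 10) embryos. Btg4 lies below every control in 7 of 9 DUX-LOF and 7 of 10 Double-LOF embryos, and Lsm14b lies above every control in 8 of 10 Double-LOF embryos.

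Among the deadenylation genes, Btg4 and Cnot7 fell after DUX loss, whereas Cnot6l and Cnot8 did not pass the test in any of the 6 comparisons made. Btg4 (ENSMUSG00000032056.10, chromosome 9, 51060901 to 51119875, plus strand) ranged from 1403 to 4826 CPM in controls (median 2209.9) and from 2431 to 7348 CPM in SRF-LOF embryos (3945). It ranged from 204 to 1679 CPM in DUX-LOF (930.1) and from 361 to 2164 CPM in Double-LOF embryos (874). The groups overlapped, but 7 of 9 DUX-LOF and 7 of 10 Double-LOF embryos lay below every control, and all 9 DUX-LOF embryos lay below every SRF-LOF embryo. How many of all genes separate DUX-LOF from SRF-LOF embryos in this way was not counted, and 17.7% were called lower in DUX-LOF embryos. The log2 fold change against control was -1.31 ± 0.36 (SE, adjusted p = 0.0105) in DUX-LOF and -1.16 ± 0.35 (adjusted p = 0.0171) in Double-LOF embryos. Against SRF-LOF embryos the DUX-LOF value was -2.21 ± 0.39 (adjusted p = 5.75e-05). The value of Btg4 in SRF-LOF embryos, 0.90 ± 0.38, did not pass the test (adjusted p = 0.148). Reads from 5′ ends, counted in the same libraries and so no independent replicate, gave -1.10 ± 0.33 (adjusted p = 0.0168) in DUX-LOF and -0.88 ± 0.32 (adjusted p = 0.0434) in Double-LOF embryos.

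Cnot7 (ENSMUSG00000031601.16, chromosome 8, 40492540 to 40515847, minus strand) ranged from 602 to 1615 CPM in controls (median 947) and from 324 to 782 CPM in DUX-LOF embryos (436). It ranged from 945 to 1883 CPM in SRF-LOF (1394) and from 342 to 1262 CPM in Double-LOF embryos (733). In 7 of 9 DUX-LOF embryos and 4 of 10 Double-LOF embryos it was below every control. The DUX-LOF and SRF-LOF groups did not overlap, and as for Btg4 the share of all genes that do so was not counted. The log2 fold change was -0.95 ± 0.24 (adjusted p = 0.00433) in DUX-LOF against control and -1.50 ± 0.25 (adjusted p = 2.94e-05) in DUX-LOF against SRF-LOF embryos. The latter lay near the median of the maternal list in that comparison, -1.37. In Double-LOF embryos the Cnot7 value was -0.46 ± 0.23 against control (adjusted p = 0.157). It was -0.64 with adjusted p = 0.0326 when the embryo Double-LOF 7, the highest of that group, was left out. Cnot7 shares 247 exonic bases with Zdhhc2 on the opposite strand, and the use of strand in the authors' counting is not given in the sources used here. Zdhhc2 held 2707 internal counts in all embryos against 31473 of Cnot7. In internal reads Zdhhc2 moved with Cnot7, at -1.16 ± 0.27 in DUX-LOF embryos (adjusted p = 0.00265) and -1.85 ± 0.29 against SRF-LOF embryos (1.26e-05). In 5′ reads Cnot7 changed by -0.90 ± 0.23 in DUX-LOF embryos (adjusted p = 0.00506), where Zdhhc2 was at -0.16 ± 0.30 (adjusted p = 0.765), while against SRF-LOF embryos Zdhhc2 was lower in 5′ reads too, at -0.86 ± 0.32 (0.0334). How far reads of either gene count for the other was not tested.

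Cnot6l (chromosome 5, 96070333 to 96164171, minus strand) had a median of 149 CPM in controls. Its median was 239 CPM in SRF-LOF embryos, 158 CPM after DUX loss alone and 192 CPM after both injections, with 8 of 9 DUX-LOF and all 10 Double-LOF embryos inside the control range of 75.7 to 256 CPM. Its log2 fold changes against control were 0.49 ± 0.22 (adjusted p = 0.171), 0.22 ± 0.21 (0.514) and 0.30 ± 0.20 (0.319) for SRF-LOF, DUX-LOF and Double-LOF embryos. Cnot8 (chromosome 11, 58104153 to 58118594, plus strand) had medians of 705 CPM in controls and 459.9, 612 and 685 CPM in SRF-LOF, DUX-LOF and Double-LOF embryos. Every DUX-LOF and Double-LOF embryo lay inside its control range of 475 to 846 CPM, while 4 of 7 SRF-LOF embryos lay below it and SRF-LOF 3, at 984 CPM, above it. Its log2 fold change was -0.27 ± 0.18 in SRF-LOF (adjusted p = 0.331), -0.15 ± 0.16 in DUX-LOF embryos (0.590) and -0.11 ± 0.16 in Double-LOF embryos (0.708). Its paralogue Cnot7 thus passed the test in DUX-LOF embryos and Cnot8 did not. The difference between these 2 genes was not tested.

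Of the storage genes, Zar1l fell in DUX-LOF embryos and Lsm14b rose in Double-LOF embryos. Zar1l (ENSMUSG00000056586.8, chromosome 5, 150507055 to 150518164, minus strand) ranged from 9.97 to 63.6 CPM in controls (median 27.0), 23.8 to 50.3 in SRF-LOF (33.1), 2.84 to 31.1 in DUX-LOF (12.9) and 3.78 to 44.8 CPM in Double-LOF embryos (18.4). The ranges overlapped, with 3 of 9 DUX-LOF and 3 of 10 Double-LOF embryos below every control. The log2 fold change was -1.24 ± 0.41 in DUX-LOF (adjusted p = 0.0303) and -0.77 ± 0.39 in Double-LOF embryos (adjusted p = 0.167). The DUX-LOF call was lost in 5′ reads, at -0.79 ± 0.43 (adjusted p = 0.201), and when any 1 of 7 libraries was left out: Control 1, 4 or 5, or DUX-LOF 3, 7, 8 or 11 (adjusted p up to 0.0676). Against SRF-LOF embryos Zar1l in DUX-LOF embryos was at -1.30 ± 0.43 (adjusted p = 0.0165) and in 5′ reads at -1.37 ± 0.45 (0.0165). This call was lost with scaling to the maternal list (-0.10, adjusted p = 0.890), on the ERCC scale (-0.91, 0.188) and under the replicate block (-1.42, 0.0509).

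Lsm14b (ENSMUSG00000039108.14, chromosome 2, 180024987 to 180035465, plus strand) ranged from 1.54 to 25.6 CPM in controls (median 10.6), 5.11 to 41.2 in SRF-LOF (22.4), 9.58 to 46.8 in DUX-LOF (23.5) and 15.8 to 98.9 CPM in Double-LOF embryos (35.6). In 8 of 10 Double-LOF and 3 of 9 DUX-LOF embryos it was above every control. The rise in Double-LOF embryos was 1.79 ± 0.41 (adjusted p = 0.00184), and 2.08 ± 0.42 (adjusted p = 0.000495) in 5′ reads. The value in DUX-LOF embryos, 1.07 ± 0.41, missed the threshold (adjusted p = 0.0659), while the 5′ reads gave 1.50 ± 0.43 (adjusted p = 0.0117) and DESeq2 1.13 ± 0.40 (adjusted p = 0.0261). In SRF-LOF embryos it was 1.06 ± 0.43 (adjusted p = 0.136). The higher level in Double-LOF than in DUX-LOF embryos, 0.71 ± 0.39, did not pass the test (adjusted p = 0.792).

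Zar1 (ENSMUSG00000063935.3, chromosome 5, 72576806 to 72581254, minus strand) spread widely among controls, from 4.54 to 124 CPM (median 29.3). Its median was 109 CPM for SRF-LOF, 36.4 CPM for DUX-LOF and 47.8 CPM for Double-LOF embryos, and every DUX-LOF embryo lay inside the control range. It did not pass the test against control in internal reads, at 1.11 ± 0.49 in SRF-LOF (adjusted p = 0.166), -0.19 ± 0.47 in DUX-LOF embryos (0.825) and 0.40 ± 0.46 in Double-LOF embryos (0.604). In 5′ reads the Double-LOF value was 1.24 ± 0.44 (adjusted p = 0.0388), with 3 of 10 embryos above every control. Against SRF-LOF embryos Zar1 was lower in DUX-LOF embryos, at -1.30 ± 0.49 (adjusted p = 0.0373), a call that turned to 0.07 with scaling to the maternal list and was lost in 5′ reads (-0.77 ± 0.47, adjusted p = 0.199) and when any 1 of 11 libraries was left out: SRF-LOF 4, 5, 6, 7 or 9, or DUX-LOF 3, 5, 6, 8, 10 or 12 (adjusted p up to 0.0992).

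Ybx2 (chromosome 11, 69935796 to 69941605, plus strand) had a median of 29.9 CPM in controls, and medians of 34.5 CPM for SRF-LOF, 32.9 CPM for DUX-LOF and 39.3 CPM for Double-LOF embryos. Cpeb1 (chromosome 7, 81347026 to 81455465, minus strand) had medians of 69.5, 76.8, 60.4 and 92.3 CPM in the same groups, whose ranges overlapped. The log2 fold changes of Ybx2 against control lay between 0.06 and 0.51 in internal reads and those of Cpeb1 between -0.09 and 0.26, none past the threshold in either read class. Pabpn1l (chromosome 8, 122619471 to 122622739, minus strand) was sparse, with 408 internal counts in all embryos, and it overlaps the predicted gene Gm20388 without sharing exonic bases. Its control median was 6.36 CPM, against 19.5 CPM for SRF-LOF, 7.31 CPM for DUX-LOF and 8.03 CPM for Double-LOF embryos, and 4 of 7 SRF-LOF embryos were above every control. The value in SRF-LOF embryos, 1.35 ± 0.51, did not pass the test (adjusted p = 0.114).

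**Figure D2:**
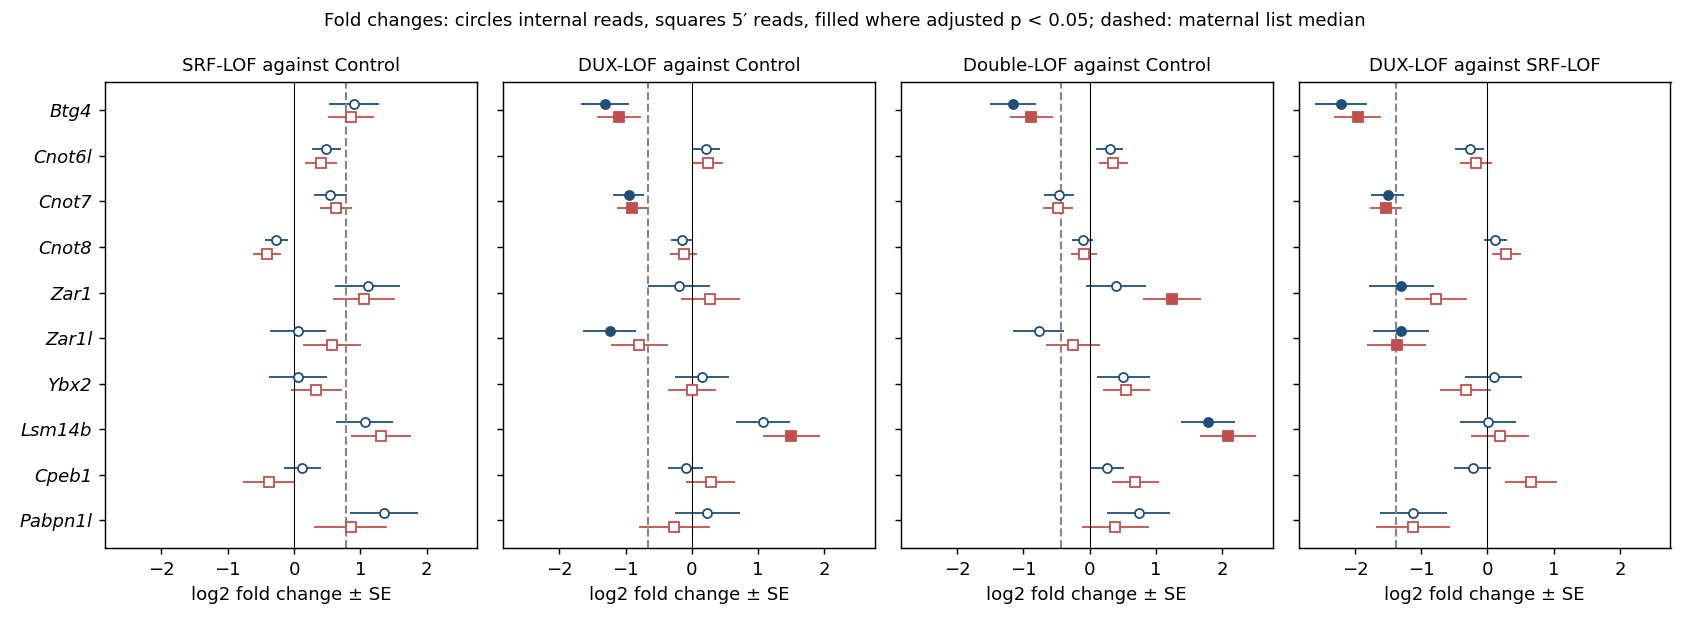
Log2 fold change ± SE of the 10 genes in 4 comparisons, from internal reads (circles) and 5′ reads (squares), filled where the adjusted p is under 0.05. The dashed line is the median of the maternal list in internal reads, at 0.78, -0.66, -0.44 and -1.37 from left to right, and Btg4 lies left of it in the last 3 panels.

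Counted over the 10 genes, 3 were lower and none higher in DUX-LOF embryos (Btg4, Cnot7 and Zar1l), where 8.21% of all genes tested were lower and 8.76% higher. In Double-LOF embryos 1 was lower (Btg4; 9.31% of all genes) and 1 higher (Lsm14b; 10.1%). Between DUX-LOF and SRF-LOF embryos 4 were lower (Btg4, Cnot7, Zar1 and Zar1l) and none higher, where 17.7% and 17.6% of all genes were called. In 5′ reads 2 were lower and 1 higher in DUX-LOF embryos, against 8.39% and 9.71% of all genes (18.1% in either direction). The Double-LOF embryos had 1 lower and 2 higher in 5′ reads, against 10.2% and 11.8% (22.0%), and 3 were lower in DUX-LOF than in SRF-LOF embryos, against 17.2% (34.9% in either direction). The median log2 fold change of the 10 in internal reads was -0.12 in DUX-LOF, 0.28 with both injections and -0.69 in DUX-LOF against SRF-LOF embryos. The maternal list stood lower in each, at -0.66, -0.44 and -1.37. DUX-LOF and Double-LOF embryos share their controls, and the comparison with SRF-LOF embryos shares the DUX-LOF embryos. The summed 2-cell genes given above were also lower in DUX-LOF and Double-LOF than in SRF-LOF embryos by their medians, and their part in these differences was not tested.

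In SRF-LOF embryos none of the 10 genes passed edgeR's test or DESeq2's, where edgeR called 2.02% of all genes, 1.37% higher. In 5′ reads none passed either, with 4 at an unadjusted p under 0.05 and 2.24% of all genes called. In internal reads 6 of them had an unadjusted p under 0.05, all toward higher levels: Btg4, Cnot6l, Cnot7, Zar1, Lsm14b and Pabpn1l. At that unadjusted level were also 27 of the 51 maternal transcripts and 26 of 90 other genes of mRNA decay and storage. In 5′ reads these were 27 of 52 and 28 of 95. The share of all genes at that level is not given here, so the counts among the 10 stand without a background. Scaling to the maternal list turned Cnot6l to -0.06 and moved the median of all genes by -0.57. The median over the 10 was 0.52 with TMM. Without SRF-LOF 3 and SRF-LOF 8, the embryos with the lowest maternal RNA of their group, 6 of the 10 passed: Btg4 at 1.12, Cnot6l at 0.63, Zar1 at 1.40, Lsm14b at 1.31 and Pabpn1l at 1.63 rose, and Cnot8 at -0.51 fell. Then 4279 of 12820 genes were called, and 25 of the 51 maternal transcripts were higher and 1 lower. Leaving out libraries by how they look is no independent evidence of these changes.

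Adding the dominant negative SRF to the DUX oligonucleotide moved none of the 10 genes past the threshold by edgeR or DESeq2, and 0.00816% of all genes were called. Only Cnot7 had an unadjusted p under 0.05, at 0.49 ± 0.23 higher in Double-LOF than in DUX-LOF embryos (adjusted p = 0.742). At that unadjusted level were also 5 of the 51 maternal transcripts and 10 of 90 other genes of mRNA decay and storage. The interaction sets the step from DUX-LOF to Double-LOF embryos against the step from Control to SRF-LOF embryos. The first adds the SRF mRNA, while the second adds it and, by the labels, also removes the scrambled oligonucleotide. An SRF effect that differs with the DUX oligonucleotide therefore cannot be told apart from an effect of that removal. The interaction gave 0 calls among the 10 and 0 among all genes by either tool, and none of the 10 had an unadjusted p under 0.05. Its values ran from -0.85 ± 0.70 for Pabpn1l and -0.75 ± 0.52 for Btg4 to 0.41 ± 0.58 for Zar1l. Without SRF-LOF 3 and 8 the interaction called 1171 genes and still none of the 10.

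Because the median of the maternal list was lower after DUX loss, the 10 genes were also read against the maternal list itself, by scaling each library to the summed list. This moved the median of all genes up against control, by 0.70 in DUX-LOF embryos and by 0.78 in Double-LOF embryos. The tested transcripts of the list themselves had a median of 0.22 on this scale in DUX-LOF embryos, with 9 called higher and 3 lower. In Double-LOF embryos their median was 0.34, with 14 called higher and 3 lower. Values on this scale are thus relative to the sum of the list and not to its typical transcript. None of the 10 was called lower on it in either group. Btg4 was at -0.56 ± 0.29 in DUX-LOF (adjusted p = 0.155) and -0.53 ± 0.28 in Double-LOF embryos (0.144), and Cnot7 at -0.14 ± 0.23 (0.688) in DUX-LOF embryos. Lsm14b was higher on this scale, by 1.89 ± 0.40 in DUX-LOF (adjusted p = 0.00101) and 2.49 ± 0.40 in Double-LOF embryos (3.37e-05). Cnot6l was at 1.10 ± 0.27 (0.00398) and 1.18 ± 0.27 (0.00129), and Ybx2 at 1.01 ± 0.38 (0.0475) and 1.22 ± 0.37 (0.0124). Zar1 at 1.27 ± 0.37 (0.00882) and Cpeb1 at 0.96 ± 0.33 (0.0253) were called in Double-LOF embryos.

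The same scale called 2743 genes higher and 154 lower in DUX-LOF embryos, against 1074 and 1007 with TMM. In Double-LOF embryos it called 3555 and 123, against 1234 and 1141. Relative to the median of all genes on each scale, Lsm14b was 1.15 higher with TMM and 1.26 higher with the maternal scale in DUX-LOF embryos, and Btg4 was at -1.23 and -1.19. Scaling to the ERCC spike-ins, RNA of known amount added to the samples, moved the median of all genes by 0.04 in DUX-LOF embryos and 0.01 in Double-LOF embryos. With it none of the 10 was called in DUX-LOF embryos, with Btg4 at -1.19 ± 0.47 (adjusted p = 0.125), Cnot7 at -1.01 ± 0.36 (0.0794) and Zar1l at -1.33 ± 0.49 (0.0922). Lsm14b kept its call in Double-LOF embryos, at 1.80 ± 0.42 (0.00454). The ERCC scale called 533 genes higher and 304 lower in DUX-LOF embryos.

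**Figure D3:**
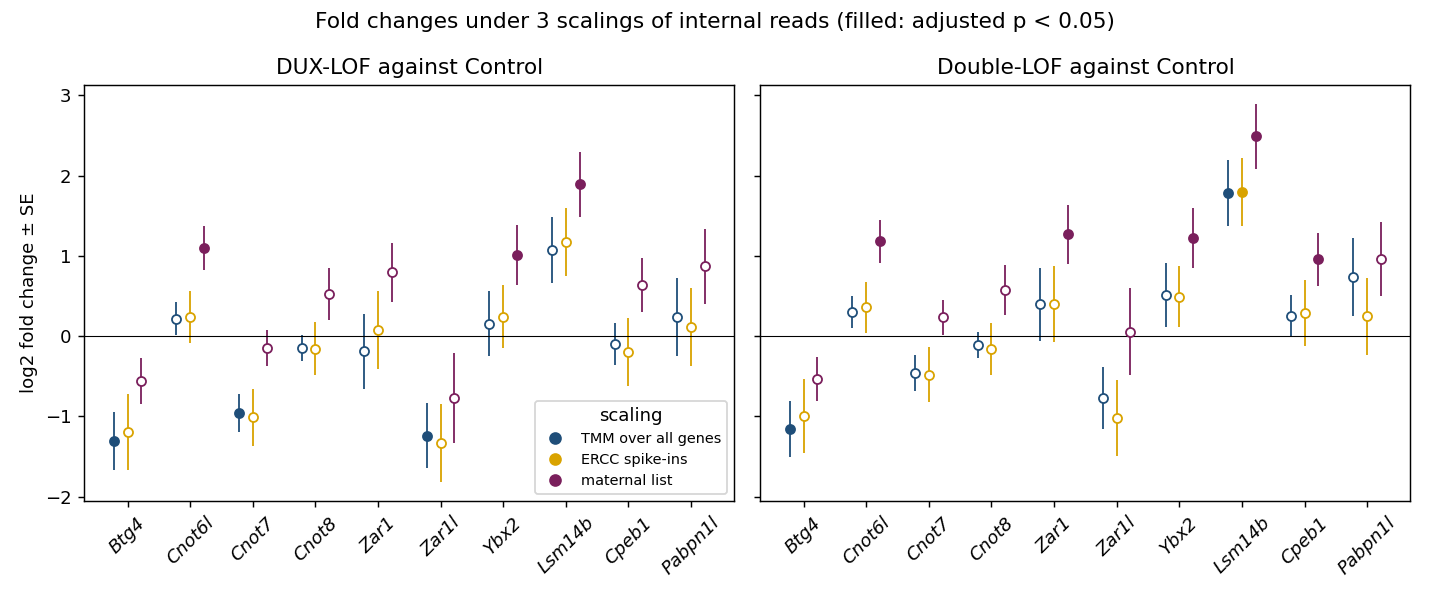
Log2 fold change ± SE of the 10 genes against control in DUX-LOF (left) and Double-LOF embryos (right) under 3 scalings of internal reads, filled where the adjusted p is under 0.05. Values on the maternal scale sit above the other scalings for every gene, and Lsm14b, at 1.79, 1.80 and 2.49 in Double-LOF embryos, is filled on all 3.

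Within groups the 10 genes were set beside the maternal list, as the mean log2(CPM + 1) of its 51 tested transcripts, in 40 relations (10 genes in 4 groups). Of these, 3 had a Benjamini-Hochberg adjusted p under 0.05 for Pearson's r, and none for Spearman's rho. Zar1 in controls had r = 0.89 (n = 9, exact two-sided permutation p = 0.00211, adjusted 0.0423) and rho = 0.80 (exact p = 0.0138, adjusted 0.102), with r = 0.88 without the 2 embryos farthest from the median of the list. Cnot6l in SRF-LOF embryos had r = 0.92 (n = 7, exact p = 0.00317, adjusted 0.0423) and rho = 0.93 (exact p = 0.00675, adjusted 0.0899), with r = 0.64 without the 2 farthest. Cnot8 in Double-LOF embryos had r = 0.78 (n = 10, permutation p = 0.00296, adjusted 0.0423) and rho = 0.72 (permutation p = 0.0239, adjusted 0.102), with r = 0.68 without the 2 farthest. Cnot8 was at r = -0.83 in SRF-LOF embryos (n = 7, exact permutation p = 0.0238, adjusted 0.106; rho = -0.93, exact p = 0.00675, adjusted 0.0899), with r = -0.66 without the 2 farthest. Also uncalled, with smaller adjusted permutation p, were Btg4 in SRF-LOF (r = 0.89, 0.0730) and Zar1 in DUX-LOF embryos (r = 0.76, 0.0730). Cnot7 in Double-LOF embryos was another (r = 0.71, 0.0924). A difference between groups in the relation of Cnot8 was not tested. The member level and the list level share the library and its scaling. No batch is named in the labels within which these could be repeated.

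**Figure D4:**
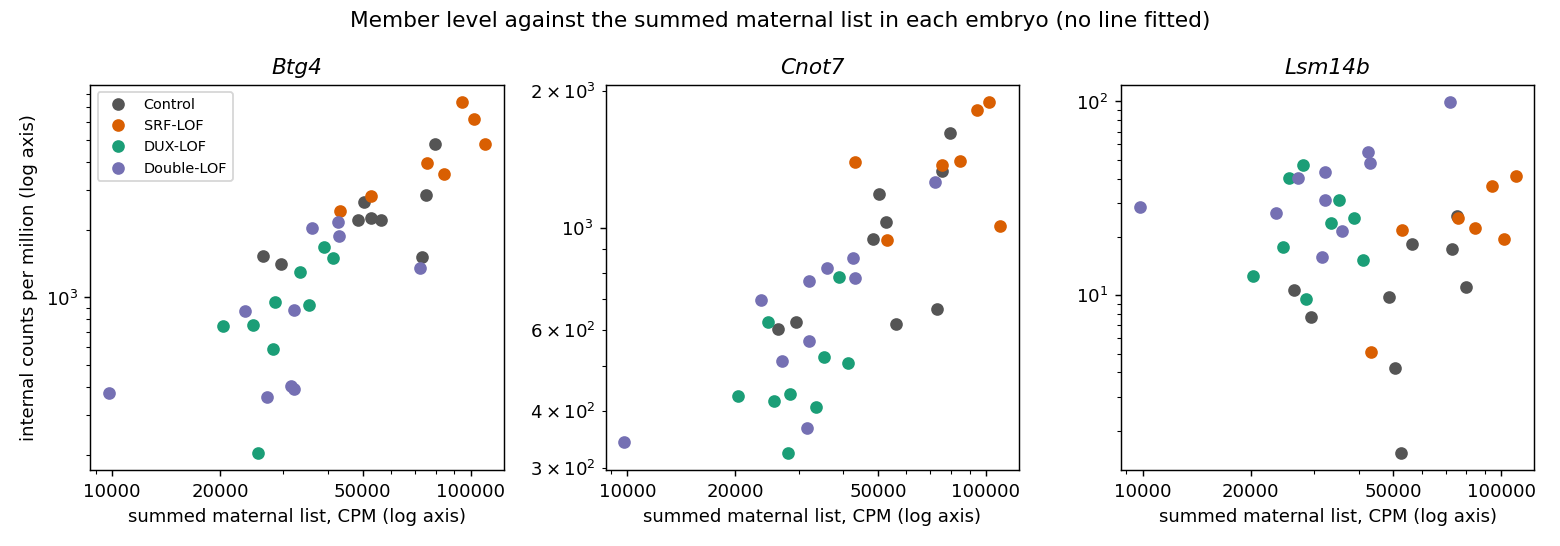
Internal CPM of Btg4, Cnot7 and Lsm14b against the summed CPM of the 53 maternal transcripts, both on log axes, with 1 point per embryo coloured by group. The embryo with the lowest list sum, Double-LOF 2 at 9804 CPM, is at the left edge, and DUX-LOF embryos lie between 20313 and 41177 CPM on the horizontal axis.

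Over all 35 embryos the gene most like each member in log2 CPM was found by Pearson's r, as a description that includes the differences between groups. For Cnot7 it was its overlapping neighbour Zdhhc2 (r = 0.96), for Btg4 Tgds (0.93), and for Zar1 the non-coding Gm43950 (0.84). Cnot6l was closest to Il12rb2 (0.83), Lsm14b to Tet3 (0.82), Ybx2 to Sebox (0.82) and Zar1l to Tinf2 (0.72). Cpeb1 was closest to Nlrp9a (0.70), Pabpn1l to Gm10280 (0.70) and Cnot8 to Gm37939 (0.65). Of the pairs among the 10, Btg4 and Cnot7 were most alike (r = 0.84) and the next pair, Cnot6l and Zar1, was at 0.48.

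Other genes of mRNA decay and storage were read from a list of 96, of which 90 were tested. In DUX-LOF embryos 5 rose and 10 fell, 15 of 90 in all against 17.0% of all genes. In Double-LOF embryos 8 rose and 12 fell, 20 of 90 against 19.4%. Both shares lie near those of all genes. The split depends on the scaling: with ERCC 2 rose and none fell in DUX-LOF embryos, and 4 rose and 4 fell in Double-LOF embryos. Scaled to the maternal list, 22 rose and none fell with DUX loss alone, and 37 rose and 2 fell with both injections. With the replicate block 5 rose and 4 fell in DUX-LOF embryos. The strongest change by p-value was in Eif4enif1, whose product 4E-T holds the cap-binding protein eIF4E in stored mRNA particles. It rose from 73.5 ± 27.2 CPM (SD, n = 9) in controls to 353 ± 73.7 CPM (n = 9) in DUX-LOF embryos, by 2.26 ± 0.22 on the log2 scale (adjusted p = 4.59e-09), and to 364 ± 83.6 CPM (n = 10) in Double-LOF embryos, by 2.31 ± 0.22 (1.46e-09). In SRF-LOF embryos it stood at 61.9 ± 16.4 CPM (n = 7).

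Further rises in DUX-LOF embryos were Tent4b, a non-canonical poly(A) polymerase, by 1.73 ± 0.28 (adjusted p = 4.88e-05), Cpeb3, a relative of Cpeb1, by 1.34 ± 0.32 (0.00314), Pum2, a sequence-specific repressor of mRNA, by 0.78 ± 0.19 (0.00465), and Tnks1bp1, which associates with CCR4-NOT, by 1.13 ± 0.35 (0.0226). Among the falls were Lsm2, a subunit of the LSm ring that acts in decapping, at -1.11 ± 0.25 (0.00220), and Cpeb2 at -2.26 ± 0.64 (0.0116). Dazl, a germ cell translation regulator, was at -1.03 ± 0.29 (0.0122), Caprin1, an RNA granule protein, at -0.94 ± 0.27 (0.0128), and the deadenylase Parn at -1.05 ± 0.31 (0.0148). In 5′ reads Parn was at -0.57 and not called (adjusted p = 0.211). In Double-LOF embryos the rises led by p-value also held Tnks1bp1 at 1.69 ± 0.35 (0.000683) and Igf2bp2, an mRNA-stabilising reader, at 1.32 ± 0.29 (0.00131). The falls held Lsm7, another ring subunit, at -1.55 ± 0.30 (0.000299), and Ddx6, a helicase that links deadenylation to decapping, at -1.68 ± 0.35 (0.000627).

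In SRF-LOF embryos 3 genes of this list rose and 1 fell, 4 of 90 against 2.02% of all genes. None of the list was called with maternal or ERCC scaling, with only the groups compared or with the replicate block, and 1 with no filter. DESeq2 called 11 of 90, and without SRF-LOF 3 and 8 edgeR called 34 of 91. Cnot3 and Cnot4, listed among CCR4-NOT and other deadenylation factors, rose by 1.25 ± 0.30 (adjusted p = 0.0249) and 1.26 ± 0.34 (0.0447). Cnot4 went from 70.7 ± 38.8 (SD, n = 9) to 168 ± 71.8 CPM (n = 7). Pabpc1l, the embryonic poly(A)-binding protein, rose by 1.89 ± 0.48 (0.0371), from 52.8 ± 45.6 to 194 ± 119 CPM. Btg3, of the BTG and TOB family, fell by 2.25 ± 0.61 (0.0435). In 5′ reads Cnot3 and Btg3 missed the threshold (adjusted p = 0.0817 and 0.0793). Between DUX-LOF and SRF-LOF embryos 17 genes of the list were higher and 19 lower in DUX-LOF embryos, 36 of 90 against 35.3% of all genes. Among the lower ones were Pabpc1l at -3.10 ± 0.50 (2.11e-05), Cnot4 at -2.08 ± 0.35 (3.48e-05), Cnot3 at -1.58 ± 0.30 (0.000128), Dazl at -1.61 ± 0.31 (0.000169) and Cnot2 at -1.18 ± 0.25 (0.000422). Among the higher ones were Eif4enif1 at 2.51 ± 0.24 (9.71e-09), Pum2 at 1.04 ± 0.21 (0.000304), Cpeb3 at 1.67 ± 0.36 (0.000481), Tent4b at 1.29 ± 0.30 (0.00126) and Igf2bp1 at 3.15 ± 0.77 (0.00193).

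**Figure D5:**
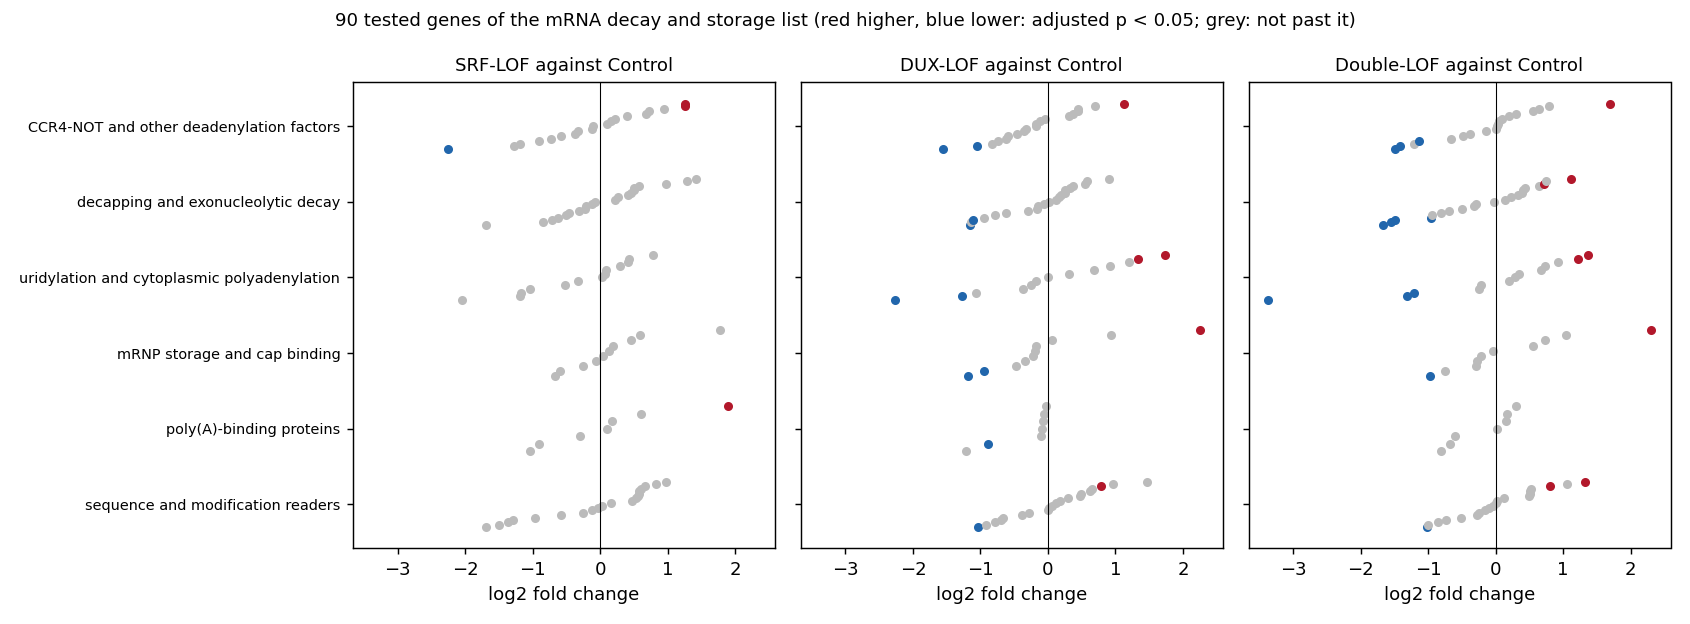
Log2 fold change of the 90 tested genes of mRNA decay and storage, by role, in 3 comparisons with control; red points rose and blue points fell at an adjusted p under 0.05, grey points did not pass. Eif4enif1 is the red point at 2.26 in DUX-LOF embryos and 2.31 in Double-LOF embryos in the row of storage and cap binding.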

How the data were processed

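RNA was counted in 35 single embryos. The authors deposited 2 files per embryo, 70 in all, and the read class is named per the file headers. For internal reads the authors deposited whole-number raw counts. The 5′ column was entered as estimated counts although all deposited values were whole, so rounding altered nothing. The submitters' processing notes name STAR 2.7.11a and GRCm38. How reads were counted, with or without strand, how multimapping reads were treated and which annotation release was used are not given in the sources used here. Each file holds 54838 gene rows, 1395 repeat rows and 92 ERCC rows, and GENCODE M21 named 54809 of the gene rows.

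Repeat and ERCC rows stayed out of library sizes. Internal counts were tested with edgeR 4.0.16 (limma 3.58.1, R 4.3.3): TMM factors, filterByExpr, quasi-likelihood fit over all 35 embryos and 4 groups, and 6 comparisons at an adjusted p of 0.05 with no fold threshold. Tested on simulated data for DUX-LOF against Control (11541 genes), the fit recovered 18.2% of 99 genes changed by 1 log2 unit. It recovered 66 of 100 changed by 2 and called 3 of 11342 unchanged genes. Changes near 1 log2 unit were thus often missed in the simulation. It changed far fewer genes than the 2081 of 12261 called in the data, and the adjusted threshold depends on that number. How often such changes were missed in the data cannot be read from it. Depth limits sparse genes such as Pabpn1l and Lsm14b, whose values rest on few counts per embryo. None of the 595 pairs of libraries held identical values.

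Alternatives comprised DESeq2 1.42.0, edgeR with DESeq2 size factors, scaling to the maternal list or to ERCC, no filter, only the groups compared, the replicate number as a block, 5′ reads, omission of libraries with under 0.25 of the median count, SRF-LOF 3 and 8 left out, and each library left out in turn. The text names all 10 members, up to 5 rises and 5 falls of the decay and storage list and up to 2 maternal genes per comparison by smallest p, and for each member with a mean of at least 10 CPM the most alike gene. The members, lists and alternatives were chosen with earlier results of these data known.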

Additional observations from a re-analysis of the deposited data

Results flagged for a closer look

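Within groups, the highest or lowest embryo was compared with the rest for each of the 10 genes in both read classes, 80 sets of values in all, and 9 had an embryo whose gap to its neighbour passed Dixon's critical value. Chance would flag about 1 in 20 such sets if they were independent and normally distributed. These are CPM without a log, and both read classes come from the same libraries, so the 9 cannot be set against that rate. Of the 9, the embryo Double-LOF 7 was the high one in 5: Lsm14b in internal reads (98.9 CPM, next 54.9), Pabpn1l in internal reads (62.9, next 13.4) and 5′ reads (48.3, next 20.6), Zar1 in 5′ reads (361, next 145) and Zar1l in 5′ reads (47.0, next 26.5). This embryo also had the highest summed maternal list of the Double-LOF group, at 72171 CPM, and the highest Srf level of its group, at 1677 CPM. Without it Lsm14b remained called in Double-LOF embryos.

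The other 4 were Btg4 in internal reads in Control 8 (4826 CPM, next 2862), Ybx2 in 5′ reads in Double-LOF 10 (191 CPM, next 111), Lsm14b in 5′ reads in SRF-LOF 7 (85.1 CPM, next 41.4) and Pabpn1l in 5′ reads in Control 2 (27.1 CPM, next 11.8).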

How the results depend on the processing

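Of 60 member values (10 genes in 6 comparisons) 9 were called. Over 2687 alternative values, 2614 stayed on the same side of the threshold, 38 lost a call, 32 gained one and 3 were reversed. The reversed ones were DUX-LOF against SRF-LOF with scaling to the maternal list: Cnot6l 1.16, Cpeb1 1.07 and Zar1 0.072. A further 98 values changed sign with no call on either scale, the largest at 0.79. Btg4 in DUX-LOF and Double-LOF embryos and Cnot7 in DUX-LOF embryos lost their calls with the maternal and ERCC scalings and with no other alternative. Lsm14b in Double-LOF embryos was called in all.

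Members called moved to 5 (maternal scaling) or 1 (ERCC) in Double-LOF, 0 (ERCC) in DUX-LOF, 2 (ERCC) in DUX-LOF against SRF-LOF and 6 (without SRF-LOF 3 and 8) in SRF-LOF embryos. Genes called in SRF-LOF embryos, 248 (168 higher and 80 lower), became 882 (363 and 519) with DESeq2, 172 (98 and 74) with its size factors in edgeR, 9 with maternal and 1 with ERCC scaling, 114 with no filter, 1 with only the groups compared and 4279 (1406 and 2873) without SRF-LOF 3 and 8. In DUX-LOF embryos ERCC scaling gave 837 and in Double-LOF embryos 1247, and maternal scaling 3678 in the latter. Between DUX-LOF and SRF-LOF embryos the split, 2152 higher and 2175 lower, became 2207 and 698 with ERCC and 6172 and 229 with maternal scaling, as the median of all genes moved by 0.41 and 1.26. Double-LOF against DUX-LOF had 2 genes in 5′ reads, with no filter and without SRF-LOF 3 and 8, and the interaction 1171 in the last. The cause of these shifts was not tested.

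Leaving out single libraries moved the genes called in SRF-LOF embryos from 8 (without SRF-LOF 4) to 1967 (without SRF-LOF 3), by more than 1.5 times in 21 of 35 fits, and the members called from 0 to 2, with Lsm14b and Pabpn1l called without SRF-LOF 3. Without Double-LOF 2 Zar1l was called in Double-LOF embryos (adjusted p = 0.0447). Lsm14b in DUX-LOF embryos was called without Control 2, SRF-LOF 3, DUX-LOF 12 or Double-LOF 7, and Pabpn1l in DUX-LOF against SRF-LOF embryos without SRF-LOF 3 or Double-LOF 7. The ranges of the other counts of genes were 1703 to 2293 in DUX-LOF, 2005 to 2627 in Double-LOF and 3645 to 5190 in DUX-LOF against SRF-LOF embryos.

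Over 41 pairs of embryos with equal replicate number the correlation of deviations had a median of 0.03, against 0.0019 for pairs of unequal number. Of the 41 pairs, 15 were over 0.1, and 7 of 35 embryos were most like one with their own number. The numbers to expect by chance were not counted, and whether replicate numbers pair the embryos was not tested. With the replicate number as a block, 3 genes were called in SRF-LOF embryos and 2 members in DUX-LOF against SRF-LOF embryos (Btg4 and Cnot7), and Zar1l lost its call in DUX-LOF embryos at -1.22 (adjusted p = 0.124).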
